A study of Homo sapiens with 12 samples.

Results

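RNA sequencing measured how HEK293T cells changed when they received a plasmid for dCas9-VP160 and no guide RNA against the CD34 promoter. The contrast used 8 of the 12 libraries of the series, namely the 4 that received dCas9-VP160 without CD34 guides and the 4 that received no plasmid. The libraries of each group were taken from the labels and were paired by experiment number. HEK293T is an established line of human embryonic kidney origin in which the SV40 large T antigen is expressed, and all libraries came from this 1 line. Cells of the dCas9-VP160 group were collected 48 h after lipofection with 5.4 pmol of plasmid in total, and the vector is named sgRNA-dCas9-VP160-P2A-EGF in the labels. Cells of the other group got no plasmid (0 pmol). The labels call them non-transfected in one place and treated with the transfection reagents only in another. No group received a plasmid that lacked dCas9-VP160, so plasmid DNA, the reagent and the protein cannot be told apart. No source used here gives the share of cells that took up plasmid or how much plasmid of each kind the groups got, and the libraries average transfected with untransfected cells. Each group was assayed in 2 experiments, with 2 technical replicates in each.

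dCas9-VP160 is a Cas9 protein without nuclease activity that is joined to repeats of the viral activator VP16, and a guide RNA normally brings it to a promoter. Mammalian cells meet a burden of foreign DNA or protein with several known programmes. In the integrated stress response, kinases phosphorylate the initiation factor eIF2, general translation slows, and ATF4 is made and switches on genes for amino acid uptake, amino acid synthesis and tRNA charging. In NF-kB signalling, RELA or RELB dimers are freed from inhibitors or processed from precursors and switch on cytokine genes together with genes for their own inhibitors.

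Positive log2 fold changes mean higher with dCas9-VP160 throughout, a gene is called at an adjusted p under 0.05, and p-values rest on 2 experiments per group.

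Depth ranged from 6750035 to 11932244 gene counts over the 8 libraries, with 26338 to 28418 genes detected. Mitochondrially encoded genes took 8.31 to 8.78% of gene counts without plasmid and 5.14 to 5.63% with dCas9-VP160. Spike-in sequences, which entered no test, made up 0.719 and 0.404% of counts in both libraries of experiment 1 that got no plasmid. Elsewhere their share was at most 0.00818%. All 12 markers of the HEK293 line were detected, with a summed level of 1907 to 2089 CPM (counts scaled to a common library size) without plasmid and 2130 to 2305 CPM with dCas9-VP160. Of the markers of other cell types, the blood genes PTPRC and HBB, the fibroblast gene DCN, the hepatocyte gene TTR and the kidney tubule genes UMOD and SLC22A6 had 0 counts in every library. Other markers on the same lists were detected. The summed fibroblast markers were at 36.9 to 41.3 CPM without plasmid and 27.6 to 38.2 CPM with dCas9-VP160, mostly from COL1A1 (28.4 CPM without plasmid), and the kidney tubule markers at 9.08 to 10.4 and 4.59 to 5.84 CPM, mostly from LRP2 (9.46 CPM without plasmid). The blood markers were at 4.67 to 5.00 and 2.54 to 3.56 CPM, and the endothelial, muscle and hepatocyte markers at 4.27 CPM or less in each group. Technical replicates differed by more than counting noise (chi-square per degree of freedom of 1.84 to 2.93), and both were kept and summed.

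Changes were widespread and mostly small. Of 19662 tested genes, 5234 (26.6%) were higher and 4836 (24.6%) were lower with dCas9-VP160 (edgeR's quasi-likelihood test, Benjamini-Hochberg adjustment). The shares called rose with level. Of genes with a mean under 1 CPM, 13.1% were higher and 8.78% lower, against 34.7 and 29.5% at 20 to 100 CPM. At 100 CPM or more they were 43.2 and 31.0%. Gene lists below are set beside all tested genes and were not matched for level. The median absolute log2 fold change over all tested genes was 0.29. A change of at least 2-fold was called for 868 higher genes (4.41%) and 605 lower genes (3.08%). The large rises outnumbered the large falls: 231 genes rose and 45 fell by at least 2 on the log2 scale, and 70 rose and 5 fell by at least 3. Genes called higher took 31.5% of tested counts without plasmid and 41.1% with dCas9-VP160, and genes called lower went from 41.6 to 31.8%. The counts depended on the test: DESeq2 called 3327 higher and 2529 lower genes, and edgeR without the experiment term 3036 and 2528. For 3532 genes, 18.0% of those tested, the 95% interval of the change lay within 1.2-fold in either direction. In a bulk library a lower level in each cell and a smaller share of cells with the transcript cannot be told apart.

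The 2 experiments share no library and gave similar changes. Across genes, which are not independent replicates, Pearson's r of the log2 fold changes was 0.758 for all 19662 tested genes and 0.911 for the 12881 genes with a mean of at least 5 CPM. Of 581 genes called at least 2-fold higher in experiment 1 alone, 574 were higher in experiment 2 and 483 (83.1%) were called there as well. Of 418 genes called at least 2-fold lower in experiment 1, 409 were lower in experiment 2 and 297 (71.1%) were called. Starting from experiment 2, 464 of 560 genes at least 2-fold higher (82.9%) and 270 of 438 lower (61.6%) were called in experiment 1. These calls within 1 experiment rest on technical replicates only. An interaction of experiment and plasmid was called for 2 of 17218 genes (0.0116%), RPL37A and RCC2, by edgeR's quasi-likelihood test. Leaving out 1 library at a time gave 0 to 7 genes. It gave 0 genes for 4 of the 8 libraries, with 639 to 969 genes at an unadjusted p under 0.05.

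**Figure D1:**
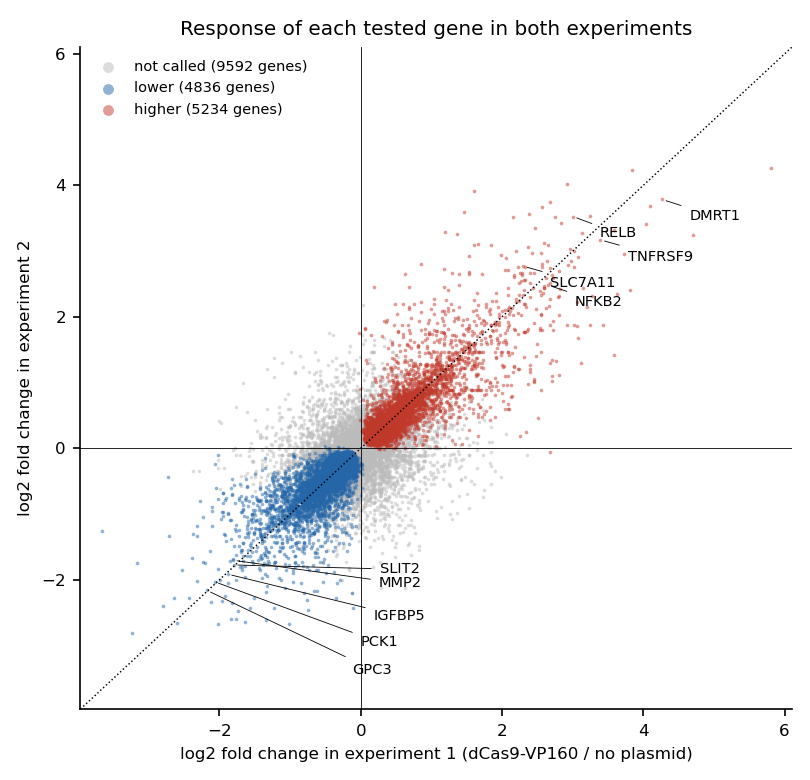
Log2 fold change of each of the 19662 tested genes (dCas9-VP160 against no plasmid) in experiment 1 (horizontal axis) and experiment 2 (vertical axis), with the line of equality dotted. Red and blue points are the 5234 higher and 4836 lower genes of the fit over both experiments. DMRT1, RELB and TNFRSF9 lie above 3 in experiment 1, and GPC3 and PCK1 lie near -2 in both.

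Among genes with a mean of at least 5 CPM, the 15 largest rises were those of genes that averaged under 10 CPM without plasmid. Throughout, 4 values per group are given in the order of replicates 1 and 2 of experiment 1 and then of experiment 2, as TMM-normalised CPM, and gene positions are those of GENCODE v29 on hg38. DMRT1 (ENSG00000137090, chr9:841690-969090, plus strand), a transcription factor of testis development, measured 0.934, 0.441, 1.04 and 0.836 CPM without plasmid and 15.6, 12.7, 15.8 and 12.8 CPM with dCas9-VP160. The lowest library with dCas9-VP160 lay above the highest without plasmid, and the log2 fold change was 4.17 (SE 0.18, adjusted p = 2.49e-16). GPNMB (ENSG00000136235, chr7:23235967-23275108, plus strand), a lysosomal glycoprotein, measured 8.29, 8.12, 8.52 and 9.38 CPM without plasmid and 51.2, 48.2, 51.7 and 48.7 CPM with dCas9-VP160. The groups did not overlap, and the log2 fold change was 2.55 (SE 0.08, adjusted p = 5.24e-19). ANKRD1, a known target of YAP, measured 4.44, 3.71, 4.49 and 4.37 CPM without plasmid and 36.6, 28.3, 32.2 and 29 CPM with dCas9-VP160. The groups did not overlap, and the log2 fold change was 2.92 (SE 0.11, adjusted p = 1.26e-17). The phospholipase PLA2G4C (3.23), the keratin KRT80 (2.58), the brain-expressed gene BEX1 (2.55), the oviduct glycoprotein OVGP1 (2.49) and the RFPL4A gene (2.62) also stood among the 15 highest. In all 15 the 4 libraries with dCas9-VP160 lay above the 4 without plasmid, as in 19.4% of all tested genes. These 15 were chosen by their log2 fold change in the same libraries, so this separation is no further support. DNAH17, an axonemal dynein chain, rose by 3.03, but it overlaps PGS1 and an antisense gene, so its reads cannot be assigned with certainty. Other named genes also overlap another annotated gene, among them PLA2G4C, SLC7A11, FTH1, DEPP1, SCUBE1, NREP, IGFBP5 and MMP2. Overlap is not pointed out for each gene below.

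Genes with the largest gain in CPM were of another kind. FTL, the light chain of the iron store ferritin, measured 718, 716, 891 and 792 CPM without plasmid and 1464, 1629, 1693 and 1756 CPM with dCas9-VP160. The groups did not overlap, with a log2 change of 1.08 (SE 0.03, adjusted p = 9.00e-20). By gain in CPM it was followed by the ER chaperone calnexin, CANX (log2 fold change 0.68), SLC3A2, described with the amino acid transporters, the glycolytic enzyme ENO1 (0.36), the ferritin heavy chain FTH1 (0.47) and the phosphatase PTP4A1 (0.72). Outside the mitochondrial genome, the 6 genes with the largest losses in CPM included the nuclear long noncoding RNA MALAT1, 4863 ± 750.1 to 3023 ± 73.9 CPM (log2 fold change -0.68), the cytoplasmic actin ACTG1, 2403 ± 18.1 to 1614 ± 22.3 CPM (-0.57), and DEPP1, 942 ± 105 to 506 ± 56.1 CPM (-0.90; SD, n = 2 experiments). For ACTB, the other cytoplasmic actin, the log2 fold change was -0.32, and its libraries overlapped between groups. The other 2 were XIST (-0.81) and TSIX (-0.77), noncoding RNAs that overlap on opposite strands, so that their reads cannot be told apart.

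Among genes with a mean of at least 5 CPM, the 15 with the lowest log2 fold changes included several secreted and cell-surface proteins. GPC3 and PCK1, described with their lists, were the lowest of these 15. SCUBE1, a secreted EGF-repeat protein, measured 12.8, 8.74, 9.32 and 7.8 CPM without plasmid and 1.74, 2.19, 3.05 and 2.24 CPM with dCas9-VP160. It fell by 2.04 (SE 0.18, adjusted p = 4.03e-10) on the log2 scale, and the groups did not overlap. The matrix protease ADAMTS5 (-1.82), the olfactomedin-like OLFML3 (-1.65) and the neuronal regeneration-related gene NREP (-1.75) fell as well, as did MIRLET7A1HG (-1.55), a host transcript of let-7 microRNAs. H3Y1 (-1.75) and TAF11L12 (-1.65) belong to families of near-identical copies, and reads can be shared among them.

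**Figure D2:**
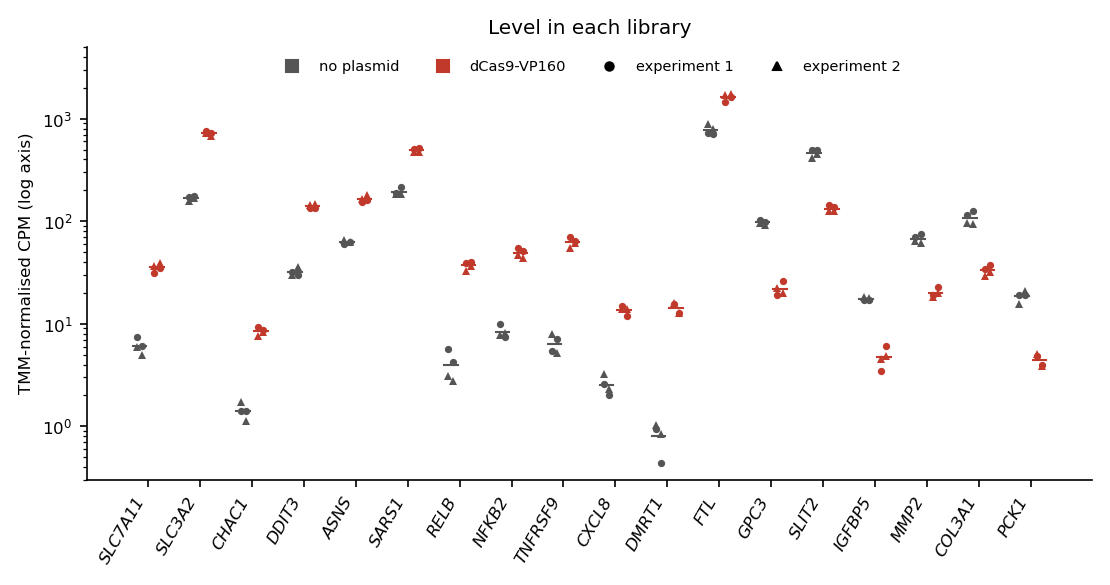
TMM-normalised CPM (log axis) of 18 genes in each library without plasmid (grey) and with dCas9-VP160 (red), with circles for experiment 1, triangles for experiment 2 and a line at the mean of 4 libraries. These genes were chosen with their values in these libraries known, and for each the groups do not overlap. They run from DMRT1 at 0.441 to 15.8 CPM to FTL at 716 to 1756 CPM.

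In the integrated stress response list, effectors rose while 3 of the 4 eIF2 kinases were not called. Of 38 tested members, 23 rose and 5 fell, with a median log2 fold change of 0.59 against -0.00196 over all tested genes. In 23 members every library with dCas9-VP160 was above every library without plasmid, and in 4 below, against 19.4 and 17.7% of all tested genes. DDIT3 (CHOP), a transcription factor that drives death under prolonged stress, measured 31.8, 29.8, 29.8 and 35.7 CPM without plasmid and 135, 136, 144 and 147 CPM with dCas9-VP160. It rose by 2.15 (SE 0.05, adjusted p = 3.20e-21), and it overlaps MARS1, which rose as well. CHAC1, a glutathione-degrading enzyme, measured 1.4, 1.41, 1.73 and 1.11 CPM without plasmid and 9.27, 8.61, 7.52 and 8.39 CPM with dCas9-VP160. Its log2 fold change was 2.61 (SE 0.19, adjusted p = 6.57e-12). TRIB3 (2.10), a pseudokinase that restrains ATF4, and PPP1R15A (2.07), the inducible subunit of the phosphatase that restores eIF2, also rose, as did the stress regulator NUPR1 (2.40) and the activin subunit INHBE (2.22). The libraries of DDIT3 and CHAC1 did not overlap between groups. ATF4 itself rose by 0.59 and ATF3 by 1.19. Of the 4 eIF2 kinases only EIF2AK3 (PERK) was called, at 0.33. EIF2AK1 (HRI), EIF2AK2 (PKR) and EIF2AK4 (GCN2) had values of 0.08, 0.06 and -0.08 and were not called. DDIT4, often counted as a target, was not called at -0.07, and SESN3 (-1.03) and VLDLR (-0.77) fell.

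Among amino acid transporters and enzymes more were called higher than lower, and the shares called lower did not exceed that of all tested genes (24.6%). Among 29 amino acid transporters, 18 rose (62.1%) and 7 fell (24.1%), with a median of 0.38. SLC7A11, the cystine carrier, measured 7.36, 6.09, 5.98 and 5.02 CPM without plasmid and 31.4, 35.3, 36.3 and 38.8 CPM with dCas9-VP160. SLC3A2, the heavy chain that carries SLC7A11 and SLC7A5 to the membrane, measured 171, 175, 158 and 168 CPM without plasmid and 762, 726, 729.9 and 676 CPM with dCas9-VP160. Their log2 fold changes were 2.55 (SE 0.10, adjusted p = 4.30e-17) and 2.11 (SE 0.04, adjusted p = 5.47e-25). SLC7A5 (0.95), the leucine carrier, and the glutamate carrier SLC1A3 (0.96) rose, whereas the system A carriers SLC38A2 (-0.26) and SLC38A4 (-0.71) and the arginine carrier SLC7A2 (-0.56) fell. Among 34 enzymes of amino acid and one-carbon metabolism, 15 rose (44.1%) and 6 fell (17.6%), with a median of 0.10. The asparagine synthetase ASNS measured 59.3, 63, 65.9 and 63.2 CPM without plasmid and 155, 160.4, 165 and 179 CPM with dCas9-VP160. It rose by 1.39 (SE 0.05, adjusted p = 6.03e-19). The 3 enzymes of serine synthesis rose (PHGDH 0.47, PSAT1 1.00, PSPH 0.74), and so did the mitochondrial folate enzymes ALDH1L2 (1.19), MTHFD1L (0.85), SHMT2 (0.65) and MTHFD2 (0.60). The cytosolic SHMT1 (-0.22), thymidylate synthase TYMS (-0.10) and glutamine synthetase GLUL (-0.66) fell.

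Nearly all cytosolic tRNA synthetases rose. Of 24 tested cytosolic enzymes and cofactors, which charge tRNAs for ordinary translation, 21 rose and 1 fell (median 0.56, with medians of 0.58 and 0.57 in experiments 1 and 2). SARS1, for serine, measured 189, 217, 183 and 182 CPM without plasmid and 508, 515, 474 and 475 CPM with dCas9-VP160. Its log2 fold change was 1.35 (SE 0.04, adjusted p = 7.45e-21), followed by YARS1 (1.18), CARS1 (1.07) and WARS1 (1.02). HARS1 (0.03) and TARS3 (-0.01) were not called, and QARS1, for glutamine, fell by 0.55 (SE 0.05, adjusted p = 1.11e-09). Of 17 mitochondrial synthetases, 4 rose and 5 fell, with a median of 0.02, which are 23.5 and 29.4% against 26.6 and 24.6% of all tested genes. Over the alternative analyses 0 to 4 rose and 1 to 6 fell, and the median changed sign in 4. Their called values lay between FARS2 at 0.35, lost in 4 of 22 alternative analyses (adjusted p up to 0.262), and VARS2 at -0.35. The difference between the lists was not tested.

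**Figure D3:**
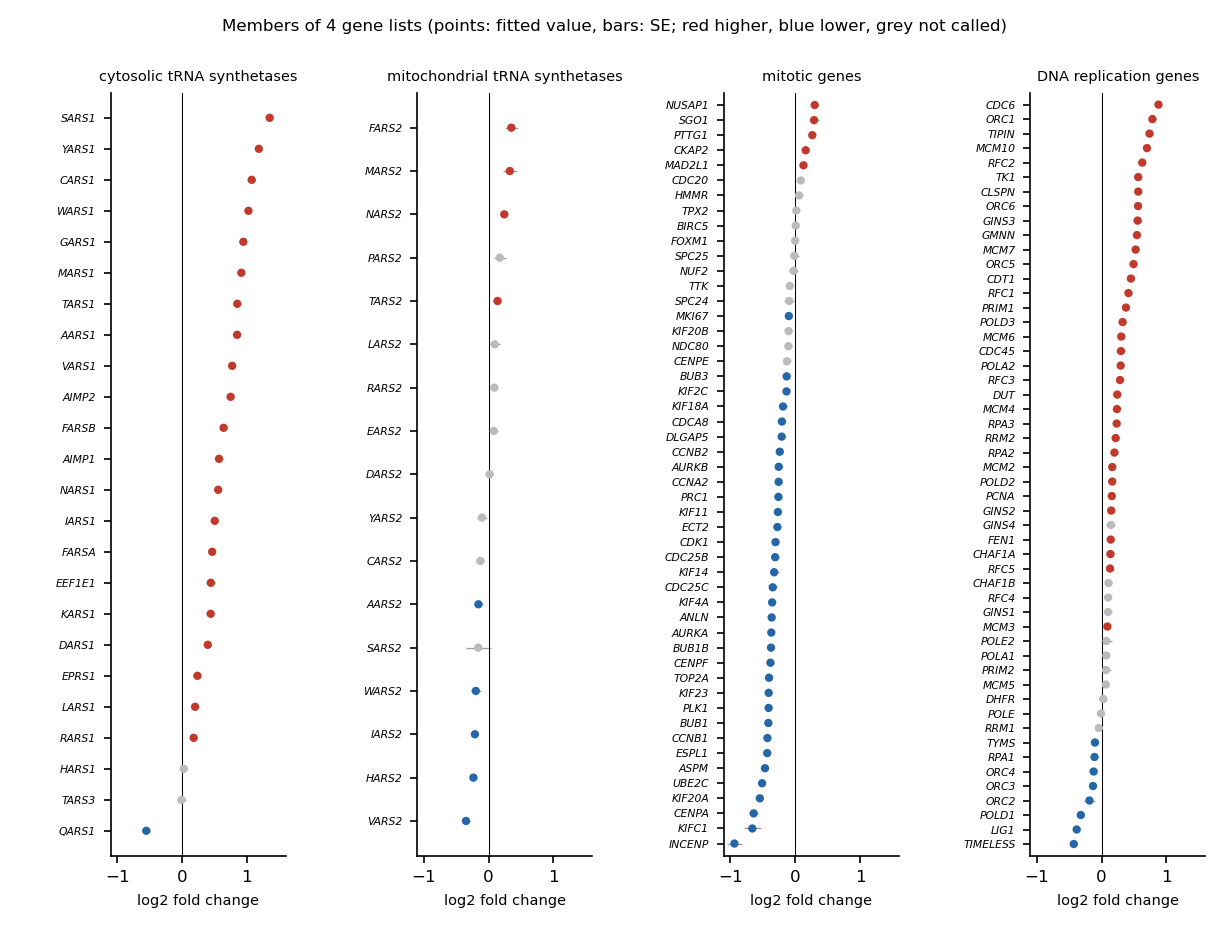
Log2 fold change (dCas9-VP160 against no plasmid) with its SE for each tested member of 4 gene lists, red where called higher, blue where called lower and grey where not called. Cytosolic tRNA synthetases lie to the right with QARS1 alone to the left, mitochondrial ones lie on both sides of 0, mitotic genes lie mostly to the left and DNA replication genes mostly to the right.

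Promoters were searched for short motifs that the contrast did not use. RefSeq promoter windows (build GRCh38.p14, 250 bases before to 50 after the gene start) were matched for 12889 tested genes, of which 516 were at least 2-fold higher and 278 at least 2-fold lower. The amino acid response motif that ATF4 with a C/EBP partner can bind (CARE, searched as TGATGNAA on both strands) was in 1.78% of all windows, 4.07% of those of genes at least 2-fold higher, 2.16% of those lower and 1.89% of those not called. It was in 6 of 17 windows of the cytosolic tRNA synthetases that rose (AARS1, CARS1, IARS1, MARS1, NARS1 and TARS1), 4 of 10 of the enzymes that rose (ASNS, BCAT1, MTHFD1L and GOT1), 4 of 14 of the transporters (SLC3A2, SLC1A3, SLC7A1 and SLC38A1) and 4 of 18 of the stress response genes (CHAC1, ATF3, HERPUD1 and PPP1R15B). Over whole lists, risen or not, it was in 6 of 19, 4 of 23, 4 of 23 and 5 of 31 windows. A match is a description of the letters and not a shown site of binding. The 250 bases before the start of CHAC1 and ATF3, the 2 stress response genes with a match and the highest log2 fold changes, are given 5′ to 3′ on the strand of the gene, with the match in capitals.
CHAC1, chr15:40953221-40953470, plus strand: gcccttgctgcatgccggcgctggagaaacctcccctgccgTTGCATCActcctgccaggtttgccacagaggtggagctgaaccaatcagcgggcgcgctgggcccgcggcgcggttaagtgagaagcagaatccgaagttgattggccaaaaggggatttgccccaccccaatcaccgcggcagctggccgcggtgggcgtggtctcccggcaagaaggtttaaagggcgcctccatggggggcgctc
ATF3, chr1:212565157-212565406, plus strand: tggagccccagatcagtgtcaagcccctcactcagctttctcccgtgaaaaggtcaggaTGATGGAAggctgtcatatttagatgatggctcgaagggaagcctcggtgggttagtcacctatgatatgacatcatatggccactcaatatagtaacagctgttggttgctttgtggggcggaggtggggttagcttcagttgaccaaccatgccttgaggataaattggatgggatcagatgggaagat
The CHAC1 match begins 209 bases before the start and the ATF3 match 191 bases before it. Shorter stretches, chosen after the motif counts were seen, compare the matches that lie before the start in the other lists, written as above, with the matched 8 bases in capitals in either orientation.
AARS1, chr16:70289670-70289709, minus strand: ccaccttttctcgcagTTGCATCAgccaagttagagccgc
IARS1, chr9:92293698-92293726, minus strand: ccgcattttcagcgcgTTGCATCAcctcc
ASNS, chr7:97872453-97872492, minus strand: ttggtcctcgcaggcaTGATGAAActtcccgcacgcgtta
BCAT1, chr12:24949126-24949165, minus strand: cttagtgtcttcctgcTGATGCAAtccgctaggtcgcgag
MTHFD1L, chr6:150866341-150866380, plus strand: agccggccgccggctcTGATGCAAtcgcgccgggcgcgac
GOT1, chr10:99430799-99430838, minus strand: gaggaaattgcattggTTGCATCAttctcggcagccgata
SLC1A3, chr5:36596352-36596391, plus strand: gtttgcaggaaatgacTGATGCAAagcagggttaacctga
The same 8 letters, TGATGCAA or its reverse complement TTGCATCA, stood in AARS1, IARS1, BCAT1, MTHFD1L, GOT1 and SLC1A3 and in CHAC1, whereas ASNS had TGATGAAA and ATF3 TGATGGAA.

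NF-kB genes rose, the noncanonical subunits most. Of 32 tested subunits, inhibitors and kinases, 22 rose and 2 fell (median 0.41). RELB, the subunit of the noncanonical pathway, measured 5.72, 4.24, 3.11 and 2.79 CPM without plasmid and 39.3, 40.1, 32.7 and 36.4 CPM with dCas9-VP160. It rose by 3.26 (SE 0.11, adjusted p = 1.74e-18). NFKB2, whose product is cut to the RELB partner p52, measured 9.92, 7.41, 7.71 and 8.18 CPM without plasmid and 55, 51.5, 47 and 43.4 CPM with dCas9-VP160. It rose by 2.58 (SE 0.09, adjusted p = 6.07e-19). The canonical subunits changed less, with NFKB1 at 0.93, RELA at 0.37 and REL not called at -0.04. The inhibitors NFKBIB (1.58), NFKBIE (1.05) and NFKBIA (0.74) rose, as did the feedback enzymes TNFAIP3 (1.55), BIRC3 (1.89) and CYLD (0.79). NFKBIB overlaps SIRT2. Of 33 receptors and ligands of the tumour necrosis factor family, 14 rose (42.4%) and 8 fell (24.2%), against 26.6 and 24.6% of all tested genes. TNFRSF9 (4-1BB), a receptor known from activated T cells, measured 5.37, 7.15, 7.94 and 5.2 CPM without plasmid and 69.7, 64.8, 54.6 and 61.7 CPM with dCas9-VP160, which is 3.30 (SE 0.09, adjusted p = 7.71e-21) on the log2 scale. The receptors TNFRSF12A (1.70) and FAS (0.84) rose, and TNFRSF19 (-0.59), TNFRSF21 (-0.41) and the decoy receptor TNFRSF10C (-0.84) fell. The ligand TNF was scarce and went from 0.332 ± 0.186 to 1.65 ± 0.465 CPM (SD, n = 2), with a log2 change of 2.27 (SE 0.45, adjusted p = 1.40e-04).

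Of 32 tested cytokine and chemokine genes, 22 rose and 2 fell (median 1.30), nearly all from low levels. The neutrophil attractant CXCL8 measured 2.57, 2.03, 3.22 and 2.32 CPM without plasmid and 14.9, 12, 14.1 and 14 CPM with dCas9-VP160. With no overlap between groups, it rose by 2.47 (SE 0.16, adjusted p = 6.72e-13). IL34, a ligand of the CSF1 receptor, was called higher from few counts, at 0.125 ± 0.177 to 1.09 ± 0.678 CPM, and the chemokine CCL4 (3.40) went from 0.204 ± 0.0755 to 2.22 ± 0.412 CPM (SD, n = 2). CXCL1 (1.36), CXCL2 (1.55) and CXCL3 (2.15), IL32 (2.22), IL11 (1.89) and LIF (1.15) also rose. CXCL12 (-1.94), a chemokine of stromal cells, and TGFB1 (-0.20) fell, and CXCL10 (0.64) and CCL2 (0.21) were not called. The NF-kB motif (10 bases, both strands) was in 13.1% of all windows, 13.2% of those of genes at least 2-fold higher and 15.1% of those at least 2-fold lower. It was in 8 of 29 windows of the NF-kB list, of which 6 were among the 20 windows of members that rose, and in 11 of 20 windows of the cytokine list, of which 8 were among the 14 of members that rose. BIRC3 and TNFAIP3 are shown as the 2 members of the NF-kB list with a match and the highest log2 fold changes, each with 2 matches in capitals.
BIRC3, chr11:102317234-102317483, plus strand: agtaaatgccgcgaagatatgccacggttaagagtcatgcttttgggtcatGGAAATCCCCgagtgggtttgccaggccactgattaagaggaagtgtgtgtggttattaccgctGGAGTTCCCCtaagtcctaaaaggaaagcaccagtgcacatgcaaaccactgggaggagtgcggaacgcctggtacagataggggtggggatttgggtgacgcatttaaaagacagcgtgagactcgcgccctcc
TNFAIP3, chr6:137867009-137867258, plus strand: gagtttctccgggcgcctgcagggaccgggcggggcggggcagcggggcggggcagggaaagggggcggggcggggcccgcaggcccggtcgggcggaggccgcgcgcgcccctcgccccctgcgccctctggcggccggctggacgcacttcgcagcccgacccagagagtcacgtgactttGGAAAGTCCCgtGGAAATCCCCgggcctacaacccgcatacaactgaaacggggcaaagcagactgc
The BIRC3 matches begin 199 and 135 bases before the start, and those of TNFAIP3 67 and 55 bases before it.

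Interferon-induced genes were called in both directions, at shares not far from those of all genes. Of 54 tested, 19 rose (35.2%) and 16 fell (29.6%), against 26.6 and 24.6% of all tested genes, with a median of 0.04. IFIT2 measured 1.17, 1.76, 1.27 and 1.95 CPM without plasmid and 7.82, 11.2, 8.4 and 9.64 CPM with dCas9-VP160. It rose by 2.53 (SE 0.19, adjusted p = 2.21e-11), but in experiment 2 alone its adjusted p was 0.127. IFIT2 overlaps LIPA and AL353751.1, so its reads cannot be assigned with certainty. OASL, an antiviral relative of the oligoadenylate synthetases, was called higher from few counts, at 0.0515 ± 0.0728 to 0.499 ± 0.0366 CPM (SD, n = 2). ISG15 (1.70), ISG20 (1.44) and the transcription factor IRF1 (0.96) rose. Members that fell were IFI44 (-1.20), IFI44L (-1.12), BST2 (-0.82), IFIT1 (-0.66), IFITM1 (-0.66) and others, and STAT2, a subunit of the factor that carries the type I interferon signal, fell by 0.69 (SE 0.06, adjusted p = 2.06e-10). Over 22 alternative analyses the list had 11 to 20 higher and 9 to 17 lower members, and in experiment 2 alone and without technical replicate 1 the lower outnumbered the higher. Of 16 nucleic acid sensors and adaptors, 7 rose and 2 fell. TLR3 (1.58), which senses double-stranded RNA, RIGI (0.81) and IFIH1 (0.50; DESeq2 and the fit without technical replicate 1 did not call it, adjusted p up to 0.103) rose, and the adaptor MAVS (-0.39) and the inflammasome sensor NLRP1 (-0.62) fell. STING1 (-0.12) was not called. Of 26 genes of MHC class I presentation, 15 rose and 0 fell. The peptide transporter TAP1 measured 38.2, 33.3, 31.4 and 30.4 CPM without plasmid and 94.7, 88.3, 81.9 and 76.9 CPM with dCas9-VP160, with a log2 change of 1.38 (SE 0.06, adjusted p = 9.46e-17). Stress ligands of the receptor NKG2D rose (ULBP1 1.41, ULBP2 1.27, MICB 0.68). HLA-B (0.53) and HLA-C (0.13) rose less, and reads can be shared among these near-identical genes.

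Most AP-1 factors and part of the other immediate early genes were higher at 48 h. Of 17 AP-1 factors, 10 rose and 4 fell (median 0.67). FOSL1 (1.63), FOS (1.57), FOSB (2.07), JUNB (1.56) and BATF3 (1.58) rose, whereas JUN fell by 0.23 and JUND was not called (-0.04). Among 31 EGR, KLF and related factors, 14 rose and 6 fell. EGR1, a transcription factor induced by growth factor signals, measured 4.9, 3.18, 3.34 and 4.09 CPM without plasmid and 15.5, 14.5, 15.2 and 13.5 CPM with dCas9-VP160. It rose by 1.94 (SE 0.13, adjusted p = 1.45e-12). ARC (1.65), ZFP36 (1.15) and NR4A1 (1.08) rose, and KLF9 (-0.75), IER5 (-0.47) and MYC (-0.22) fell. Of 24 feedback genes of MAP kinase signalling, 11 rose and 1 fell, with DUSP5 at 1.21, DUSP8 at 1.17 and SPRY2, the member that fell, at -0.43. The AP-1 motif (TGANTCA, both strands) was in 4.96% of all promoter windows, 13.6% of those of genes at least 2-fold higher, 5.76% of those at least 2-fold lower and 5.00% of those not called. A TATA box (TATAAA on either strand) was in 6.42, 14, 10.4 and 6.61% of the same groups. The E-box CACGTG went the other way for lower genes, in 9.63, 8.14, 4.68 and 9.42%. The median GC content of the windows was 65.0, 61.3, 62.3 and 64.7%, and its part in the motif shares was not tested.

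**Figure D4:**
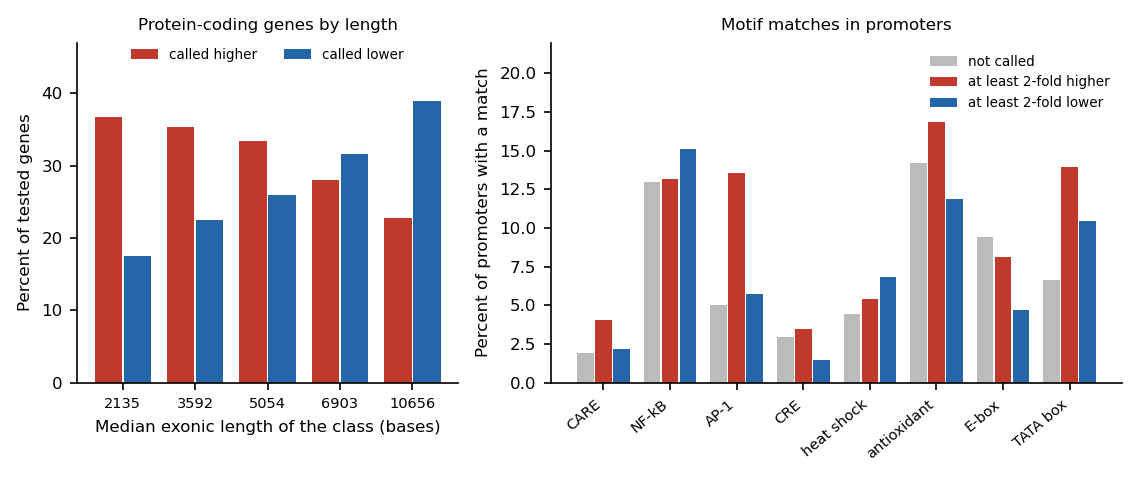
Left, percent of tested protein-coding genes called higher (red) or lower (blue) in 5 classes of exonic length, labelled by the median length in bases, with the longest class at 22.8% higher and 38.9% lower. Right, percent of promoter windows that hold each motif among genes not called (grey), at least 2-fold higher (red) or at least 2-fold lower (blue). AP-1 and TATA box matches reach 13.6 and 14% among higher genes.

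Many genes of protein folding and transport rose by small amounts. Of 37 ER chaperones and degradation factors, 25 rose and 2 fell (median 0.20). XBP1, a transcription factor of the unfolded protein response, measured 205, 209, 214 and 195 CPM without plasmid and 451, 459.7, 449 and 429 CPM with dCas9-VP160, with a log2 change of 1.12 (SE 0.04, adjusted p = 2.50e-19). HERPUD1 (0.85), SELENOS (0.89) and HSPA5 (BiP, 0.58) rose, PDIA4 (-0.10) and DERL3 (-1.21) fell, and HSP90B1 rose by 0.15. DERL3 overlaps SMARCB1, so its reads cannot be assigned with certainty. Of 38 coat and carrier genes of transport between ER and Golgi, 23 rose and 3 fell. The largest called changes were those of the coat subunits COPZ2 (2.24, SE 0.38) and ARCN1 (0.76). COPZ2 was scarce, with 7, 2, 0 and 8 counts in the libraries without plasmid. Of 33 cytosolic heat shock genes, 18 rose and 3 fell. The small chaperone HSPB8 (1.37) and HSPH1 (0.95) rose, HSPA8 fell by 0.37, and the classic heat-inducible genes HSPA1A (-0.18) and DNAJB1 (-0.02) were not called. HSPA1A and HSPA1B are near-identical, and reads can be shared between them. In the chaperonin CCT, 7 of 8 subunits rose, from CCT3 at 0.18 to CCT8 at 0.56. In the proteasome, 26 of 42 genes rose and 4 fell (median 0.19). The immunoproteasome subunit PSMB9, which lies beside TAP1, rose most, by 2.34 (SE 0.30, adjusted p = 2.65e-07).

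Part of the oxidative stress genes rose. Of 29 genes of NRF2, glutathione and iron storage, 14 rose and 3 fell. HMOX1 (1.33), which degrades heme, SQSTM1 (1.22), NQO1 (0.66) and OSGIN1 (1.68) rose. Of the usual NRF2 targets for glutathione synthesis and thioredoxin, GCLC (-0.09), GCLM (0.14) and TXNRD1 (0.07) were not called. In the lysosome and autophagy list, 27 of 48 rose and 7 fell. The master regulators TFEB (0.92), TFE3 (1.01) and MITF (0.55) and their regulators FLCN (0.95) and RRAGD (0.77) rose, whereas ULK1 (-0.64) and the cathepsins CTSA (-0.48), CTSB (-0.21) and CTSZ (-0.59) fell. Of 7 tested metallothionein and zinc export genes, 4 rose and 0 fell. The metallothionein MT1X was called at 0.22 but was at -0.077 (adjusted p = 0.637) without technical replicate 2.

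Genes of ribosome production rose. Of 52 nucleolar factors, 44 rose and 1, POLR1A (-0.23), fell (median 0.47, and 0.51 and 0.42 in experiments 1 and 2). RRP12, a factor of subunit export, measured 32, 34.9, 29.8 and 32.7 CPM without plasmid and 93.6, 91.5, 76.5 and 81.3 CPM with dCas9-VP160, with a log2 change of 1.41 (SE 0.06, adjusted p = 9.53e-17). DDX21 (1.01), NOP56 (0.61) and NOP58 (0.60) rose, and nucleolin, NCL, was not called (-0.05). Of 25 host genes of small nucleolar RNAs, 19 rose and 1, SNHG4 (-0.47), fell (median 0.51). SNHG17 measured 50.8, 49.9, 48.7 and 44 CPM without plasmid and 150.1, 155, 143 and 134 CPM with dCas9-VP160. Its log2 fold change was 1.59 (SE 0.05, adjusted p = 2.50e-19), next to SNHG12 (1.73), SNHG15 (1.40) and GAS5 (1.09). Many spliced host transcripts are known substrates of nonsense-mediated decay, a pathway that needs translation. Of 19 genes of that pathway, 10 rose and 1 fell. Of 42 translation initiation factors, 25 rose and 7 fell, with EIF4EBP1 (1.10), EIF2S1 (0.77), EIF2S2 (0.74) and EIF5 (0.73) at the top. Splicing factors leaned the other way, with 7 of 36 SR, hnRNP and CLK genes higher and 20 lower (median -0.11). SRSF5 fell by 0.68 (SE 0.04, adjusted p = 2.17e-14), and HNRNPA1 (-0.46) and HNRNPL (-0.39) fell. Of 58 Mediator and general transcription factor genes, 22 rose (37.9%) and 15 fell (25.9%), against 26.6 and 24.6% of all tested genes. Called values ranged from MED10 at 0.89 to MED12 at -0.64.

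**Figure D5:**
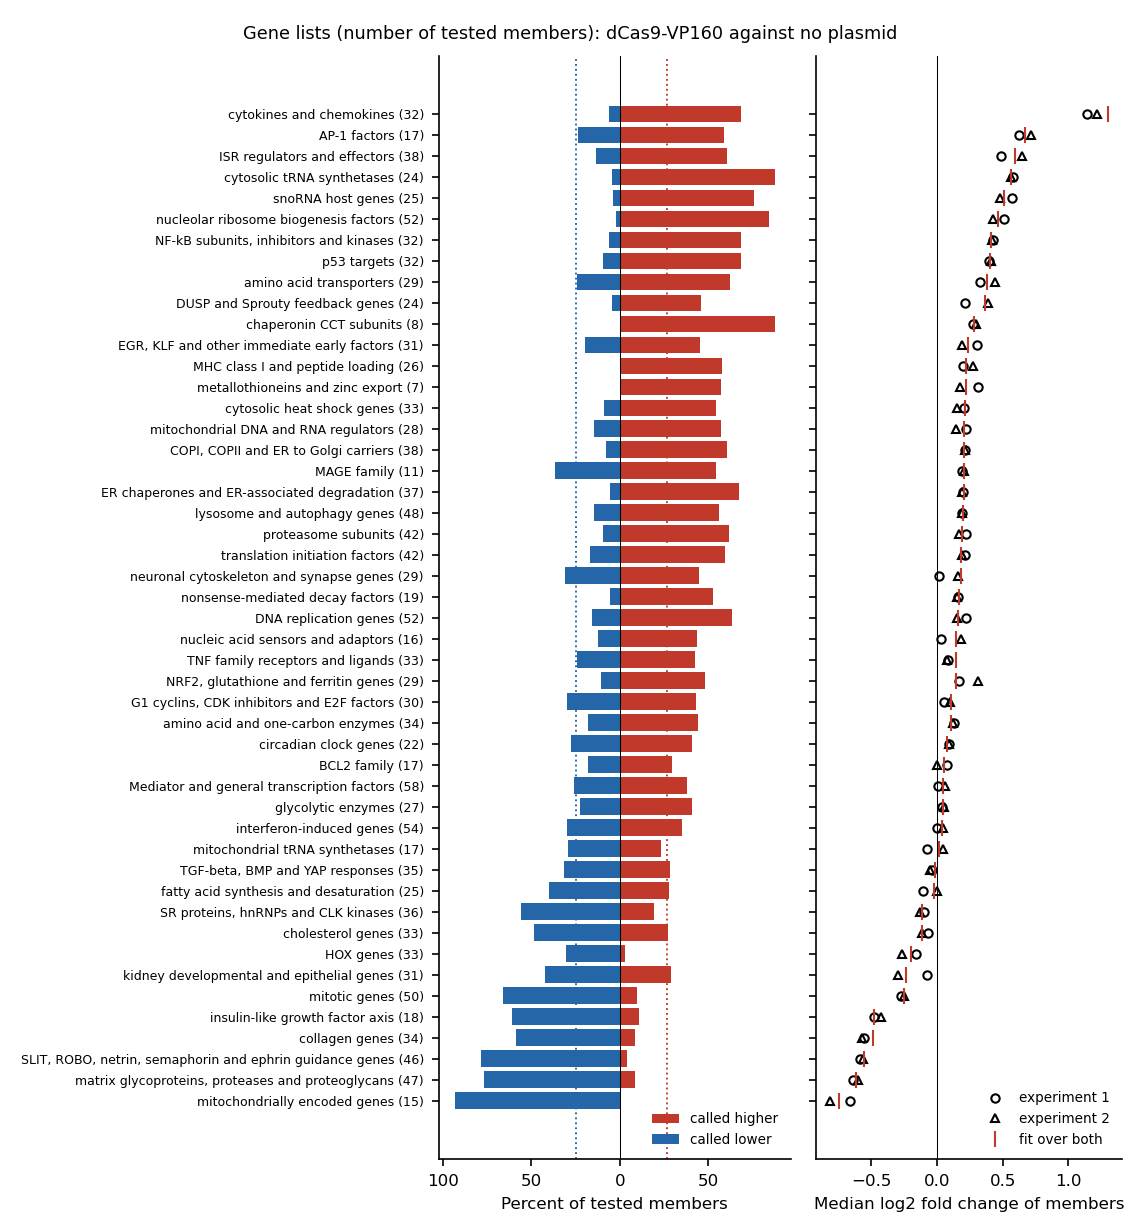
Left, percent of the tested members of each of 48 gene lists called higher (red, to the right) or lower (blue, to the left), with dotted lines at 26.6 and 24.6% for all tested genes. Right, median log2 fold change of each list in experiment 1 (circles), experiment 2 (triangles) and the fit over both (red marks). Medians run from 1.30 for cytokines and chemokines to -0.74 for mitochondrially encoded genes.

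Genes of DNA replication and of mitosis moved apart. Of 52 replication genes, 33 rose and 8 fell (median 0.16), and of 50 mitotic genes, 5 rose and 33 fell (median -0.25). The loading factor CDC6 measured 154, 164, 158 and 175 CPM without plasmid and 285, 278, 331 and 307 CPM with dCas9-VP160, with a log2 change of 0.88 (SE 0.04, adjusted p = 2.98e-16). ORC1 (0.78), MCM10 (0.70) and CDT1 (0.45) rose. The mitotic kinesin KIF20A measured 156, 164, 137 and 153 CPM without plasmid and 111, 102, 101 and 103 CPM with dCas9-VP160, with a log2 change of -0.54 (SE 0.04, adjusted p = 8.10e-11). PLK1 (-0.41), CCNB1 (-0.43), CENPF (-0.38) and TOP2A (-0.40) fell. Among 30 G1 regulators, 13 rose (43.3%) and 9 fell (30.0%), against 26.6 and 24.6% of all tested genes. The phosphatase CDC25A (1.00) and the factors E2F2 (0.94) and E2F8 (0.92) rose, and the inhibitors CDKN1A (-0.28), CDKN1B (-0.79), CDKN1C (-0.99) and CDKN2C (-0.68) fell, while CDKN2D (0.82) rose.

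Of 32 p53 targets, 22 rose and 3 fell (median 0.41) in these cells, whose large T antigen is known to bind p53. TP53I3 measured 10.4, 13.1, 12.3 and 10.7 CPM without plasmid and 36.3, 45.4, 39.9 and 47.2 CPM with dCas9-VP160, with a log2 change of 1.86 (SE 0.09, adjusted p = 9.67e-16). TIGAR (1.31), AEN (1.19) and FDXR (0.93) rose. The 3 members that fell were CDKN1A, the cell cycle inhibitor p21, at -0.28, BAX (-0.16) and TP53INP1 (-0.19), and BBC3 (PUMA, 0.05) was not called. Several of these genes, among them GDF15, GADD45A and SESN2, are also on the stress response list. In the BCL2 family, 5 of 17 genes rose (29.4%) and 3 fell (17.6%), near or below the 26.6 and 24.6% of all tested genes, and the median changed sign in 3 alternative analyses. Named members lay between the effector BAK1 at 0.82 and the BH3-only gene BMF at -1.33.

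Most genes on the lists of the extracellular matrix and of cell guidance fell. Of 47 matrix glycoproteins, proteases and proteoglycans, 36 fell and 4 rose (median -0.61), and of 34 collagen genes, 20 fell and 3 rose (median -0.48). GPC3 (ENSG00000147257, chrX:133535745-133985895, minus strand), a cell-surface proteoglycan, measured 102, 97.8, 96.1 and 92.8 CPM without plasmid and 19.1, 26, 22.5 and 19.9 CPM with dCas9-VP160. It fell by 2.17 (SE 0.06, adjusted p = 6.16e-20) on the log2 scale, with no overlap between groups. Fibronectin, FN1, measured 598, 638, 453 and 531 CPM without plasmid and 254, 219, 209.8 and 194 CPM with dCas9-VP160, with a log2 change of -1.33 (SE 0.04, adjusted p = 3.36e-20). COL3A1 measured 115, 126, 95.5 and 94.8 CPM without plasmid and 34, 37.8, 29.2 and 32 CPM with dCas9-VP160, with a log2 change of -1.69 (SE 0.06, adjusted p = 1.74e-18). The gelatinase MMP2 (-1.76), COL14A1 (-1.64) and the laminin LAMB2 (-1.28) fell, and the thrombospondin THBS2 rose by 2.34 (SE 0.13, adjusted p = 7.64e-14). The collagen COL11A2 rose by 1.43 but was lost with DESeq2 and in experiment 2 alone. Not on these lists, the collagen COL5A3 (3.70, nearly undetected without plasmid) and the laminin LAMB3 (1.59) rose as well. Of 46 guidance genes, 36 fell and 2 rose (median -0.56). The secreted SLIT2 measured 495, 491, 410.0 and 449 CPM without plasmid and 144, 137, 125 and 126 CPM with dCas9-VP160, with a log2 change of -1.79 (SE 0.04, adjusted p = 1.10e-22). Its receptors ROBO1 (-0.76) and ROBO2 (-0.95), the neuropilin NRP1 (-0.89) and the semaphorin SEMA6A (-1.28) fell, and the ephrin receptor and ligand EPHA2 (0.43) and EFNA1 (0.39) rose. Of 18 genes of the insulin-like growth factor axis, 11 fell and 2 rose. IGFBP5 measured 17, 17.1, 18.2 and 18 CPM without plasmid and 3.48, 6.13, 4.58 and 4.82 CPM with dCas9-VP160, with a log2 change of -1.92 (SE 0.12, adjusted p = 5.33e-13), and the receptors IGF1R (-0.66) and INSR (-0.46) fell. The median exonic length was 8696 bases for the collagen list, 7016 for the guidance list and 5864 for the matrix list, against 5052 for all tested protein-coding genes with a length.

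Exonic length went with direction across protein-coding genes. In the shortest of 5 equal classes (median 2135 bases) 36.8% of genes rose and 17.5% fell, and in the longest (median 10656 bases) 22.8% rose and 38.9% fell. The median log2 fold change went from 0.11 to -0.08 over the classes, and from 0.15 to -0.10 in experiment 1 and 0.07 to -0.07 in experiment 2. Spearman's rho across these 14394 genes was -0.15, as a description. The part of length in the list counts was not tested. By gene type, protein-coding genes had 4494 higher and 3924 lower of 14394, lincRNA genes 162 and 185 of 1004, and sense intronic genes 7 and 41 of 179. Sense intronic genes lie in introns of other genes, and reads of the host and of the intronic gene cannot be told apart with certainty.

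Developmental and cell identity genes changed in part. Of 33 HOX genes, 10 fell (30.3%, against 24.6% of all tested genes, and 3 to 11 genes over the alternative analyses) and 1, HOXC13 (0.35), rose, with HOXA6 the lowest at -1.37 (SE 0.15, adjusted p = 1.01e-08). In the kidney and epithelial list, 9 of 31 rose and 13 fell. The gluconeogenic enzyme PCK1 measured 19.3, 19.1, 15.4 and 20.9 CPM without plasmid and 4.83, 3.94, 5.13 and 3.91 CPM with dCas9-VP160, with a log2 change of -2.07 (SE 0.12, adjusted p = 1.17e-13). The nephron progenitor factors SIX2 (-1.03), SALL1 (-0.49), WT1 (-0.42) and PAX2 (-1.41; adjusted p = 0.237 with DESeq2), the receptor RET (-1.26) and the tubule receptor LRP2 (-0.96) fell. On the same list HNF4A (4.40), NPHS1 (1.67), WNT4 (1.58) and the epithelial adhesion gene EPCAM (1.51) rose. HNF4A was lost in 4 of its 7 alternative analyses, and NPHS1 with DESeq2 (adjusted p = 0.117). In the neuronal list, 13 of 29 rose (44.8%) and 9 fell (31.0%), against 26.6 and 24.6% of all tested genes. Its median changed sign in 2 alternative analyses. Those that rose included synaptic and secretory vesicle genes, SNAP25 (2.17), CHGB (1.54), SYP (1.43) and SCG5 (1.36) among them, and MAP2 (-0.85), NCAM1 (-0.56) and MAPT (-0.53) fell. In the MAGE family, MAGEC1 (2.36), MAGEC2 (2.17), MAGEB2 (2.14) and MAGEB6 (2.35) rose from means of 0.456 to 1.24 CPM, and MAGEL2 (-1.53) and MAGEE1 (-1.15) fell. The copies of this family are alike, and reads can be shared among them. Of 22 clock genes, 9 rose (40.9%, against 26.6% of all tested genes) and 6 fell (27.3%, against 24.6%), with NR1D1 (1.51) and BMAL1 (1.10) at the top and DBP (-0.54) at the bottom. In experiment 1 alone and without no plasmid experiment 2 replicate 1 as many clock genes fell as rose. Of 35 TGF-beta, BMP and YAP response genes, 10 rose (28.6%) and 11 fell (31.4%), near the 26.6 and 24.6% of all tested genes, and the lower no longer outnumbered the higher in 3 alternative analyses. ANKRD1, CCN1 (0.92) and CCN2 (0.80) rose while YAP1 fell by 0.64.

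Metabolic lists split. Of 15 genes on the list of mitochondrially encoded genes, 14 fell and 0 rose (median -0.74, and -0.66 and -0.81 in experiments 1 and 2). Over all 29 tested genes of the mitochondrial genome, 15 fell and 1 rose, with a median of -0.47. MT-CYB, a subunit of complex III, measured 5330.4, 5559.6, 6179 and 5714 CPM without plasmid and 2881, 2981, 2939 and 3066 CPM with dCas9-VP160, with a log2 change of -0.93 (SE 0.03, adjusted p = 3.85e-19). In experiment 1 alone its adjusted p was 0.0862, and 2 genes of this list were called there against 9 in experiment 2 alone. MT-ND6, MT-ND4L and MT-CO3 were also lost in experiment 1 alone. The called falls on the list ranged from MT-CO1 at -0.34 to MT-CYB, and MT-ATP8 was not called. Nuclear genes for the upkeep and transcription of mitochondrial DNA moved otherwise: 16 of 28 rose and 4 fell, and TFAM (0.45) and PPARGC1A (1.01) rose while POLRMT was not called (0.00). Of 27 glycolytic genes, 11 rose (40.7%) and 6 fell (22.2%), against 26.6 and 24.6% of all tested genes. Of 33 cholesterol genes, 9 rose (27.3%) and 16 fell (48.5%), against 26.6 and 24.6% of all tested genes. The SREBP2 targets HMGCS1 (-0.45) and SQLE (-0.25) were lower and INSIG1 (0.41) was higher. Of 25 fatty acid genes, 7 rose and 10 fell, against 26.6 and 24.6% of all tested genes. The sign of the median changed in 4 alternative analyses, and as many rose as fell in 4. FASN (-0.69) fell most.

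Some genes were nearly undetected without plasmid. In both experiments 13 genes had 3 counts or fewer in the summed libraries without plasmid and 20 or more with dCas9-VP160, and 0 genes had the opposite pattern. SCG2, a precursor of neuroendocrine peptides, had 0 and 3 counts in experiments 1 and 2 without plasmid and 101 and 104 with dCas9-VP160. That is at least 39.5-fold higher in experiment 1 and 32.4-fold in experiment 2, taken against a floor of 3 counts per summed library. NPPB, which encodes a natriuretic peptide, had 0 and 2 counts without plasmid and 46 and 40 with dCas9-VP160, at least 18.0-fold and 12.5-fold higher. The peptide hormone gene PYY had 0 and 3 against 21 and 26, at least 8.22-fold and 8.09-fold higher. The others included MIR9-3HG (3 and 3 against 25 and 46), C9orf152 (3 and 1 against 28 and 36) and COL5A3 (3 and 1 against 32 and 21). With limits of 0 and at least 10 counts, 0 genes met the rule in either direction.

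The 2 genes with a called interaction changed by small amounts. RCC2, a chromosome-associated protein, changed by -0.69 and -0.20 on the log2 scale in the first and the second experiment, and RPL37A, a ribosomal protein gene with related pseudogenes, by 0.23 and -0.27. The interaction was tested on technical replicates, so it describes these 2 experiments only.

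CD34, the promoter of which the guides of the third group targeted, measured 1.52, 2.47, 1.61 and 2.42 CPM without plasmid and 0.773, 1.02, 0.981 and 0.831 CPM with dCas9-VP160, from 13, 28, 14 and 26 counts and from 8, 7, 9 and 10 counts. Its log2 fold change was -1.20 (SE 0.26, adjusted p = 4.17e-04), and it was lost without technical replicate 2 (adjusted p = 0.109). The third group, dCas9-VP160 with 6 CD34 guides, shares the cells without plasmid as its control, so its values only stand beside those above. With guides the log2 fold change against no plasmid was 4.90 for DMRT1, 2.71 for SLC7A11, 2.14 for SLC3A2, 2.17 for CHAC1, 2.32 for DDIT3, 2.67 for RELB, 1.79 for NFKB2, 1.97 for CXCL8, -2.35 for GPC3, -1.88 for SLIT2 and -2.45 for IGFBP5. Mitochondrial genes took 5.57 to 7.50% of counts there.

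The authors' deposited table lists 97 genes, 77 with positive and 20 with negative log2 fold changes for this contrast. Its statistics equal the distance of the absolute log2 fold change from 1 in units of its standard error, which is a test against a 2-fold change. All 97 were called in the same direction in the counts, and the largest difference between a log2 fold change of the authors' deposited table and that of the fit here was 0.12. A further 1376 genes were called and at least 2-fold changed here against a null of no change.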

How the data were processed

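Poly(A)-primed libraries were made from 1 ng of total RNA with the SMART-Seq HT and Nextera XT kits, per the labels' protocols. These kits do not mark the strand, although the library type in the labels hints at directional sequencing. Overlapping genes were therefore treated as uncertain. Trim Galore 0.3.7, STAR 2.6.0c, Picard 2.17.1, DESeq2 1.16.1 and the hg38 build are named in the submitters' processing notes. No source used here names the counting program or its annotation. The authors deposited raw counts per gene for 60604 gene rows and 92 spike-in rows. The authors' deposited table of 97 genes holds log2 fold changes with standard errors (log2), a p-value and an adjusted p-value, a mean signal and a test statistic, a score. Gene names of 56812 rows came from GENCODE v29.

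In the main fit technical replicates were summed, and its p-values therefore rest on 2 experiments per group. Counts of the 6 summed libraries (all 3 groups, which share the spread) were fitted with edgeR 4.0.16 in R 4.3.3, by quasi-likelihood with TMM factors, filterByExpr and terms for experiment and group (residual degrees of freedom 2, prior 24.0). The SE was taken as the absolute log2 change over the square root of F, and adjustment was by Benjamini-Hochberg over all 19662 genes. The experiment term is the pairing that the titles give. The interaction was fitted on the 12 unsummed libraries, and each experiment alone on its own unsummed libraries, so these p-values rest on technical replicates. Means ± SD of CPM are over 2 experiments. The floor is 3 counts and covers counting error only. Alternatives were other scalings, filters, DESeq2 1.42.0, unsummed libraries, the fit without the experiment term, and leaving out each library, technical replicate or experiment. The fitting script was tested on simulated data. Members and lists were chosen with earlier results of these data known. Genes were named by the 15 largest changes per direction, the 6 largest gains and losses in CPM, up to 4 members per list, genes near the floor and the interaction. Those first 2 kinds left out mitochondrial, antisense and pseudogene transcripts and, like the interaction, needed a mean of at least 5 CPM. Other list members named were picked for their known roles after their values were seen. Antisense, overlapping and near-identical genes share reads.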

Additional observations from a re-analysis of the deposited data

Results flagged for a closer look

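In 500 groups of 4 libraries, 15 (3.0%) had 1 library apart from the other 3. The gap took up most of the range (above Dixon's 95% critical value). For independent libraries chance gives about 1 in 20. These libraries are technical replicates within experiments, so that rate is only a rough guide. Without plasmid, experiment 1, replicate 1 stood apart for SLC43A2 (6.89 CPM against 5.29 to 5.41), BIK (1.87 against 3.35 to 3.45), FADS3 (39.9 against 36.8 to 37.0), IGF2 (5.14 against 3.0 to 3.34) and NFIL3 (19 against 22.4 to 22.9). Replicate 2 of that experiment stood apart for ANKRD1 (3.71 CPM against 4.37 to 4.49) and COL14A1 (35.7 against 28.6 to 28.9). In experiment 2 without plasmid, replicate 1 stood apart for KRT80 (1.04 CPM against 1.86 to 1.98), STARD4 (75.6 against 81.5 to 82.5) and ACAT2 (103.7 against 93.3 to 94.8), and replicate 2 for RFPL4A (1.49 against 1.98 to 2.07) and SEMA6C (7.99 against 10.7 to 11.2).

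With dCas9-VP160, experiment 1, replicate 1 stood apart for MTERF2 (23.6 CPM against 34.3 to 34.7). Experiment 2, replicate 1 stood apart for PDE7B-AS1 (3.71 CPM against 2.19 to 2.41), and replicate 2 for MALAT1 (3140.5 CPM against 2953 to 2973).

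The response differed between experiments by the interaction test for RCC2, by 0.51 on the log2 scale (experiment 2 minus experiment 1), and for RPL37A, by -0.50.

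Spike-in sequences, which no comparison used, took 0.719% of counts in replicate 1 of experiment 1 without plasmid.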

How the results depend on the processing

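DESeq2 called 3327 higher and 2529 lower genes, 523 and 276 of them by at least 2-fold, against 5234, 4836, 868 and 605 in the main fit. With no replicate block (experiment left out) 3036 were higher and 2528 lower. Adding technical replicate as a block beside experiment over 12 libraries gave 4832 and 4657, with 595 and 388 by at least 2-fold, and 12 unsummed libraries alone gave 393 at least 2-fold lower. Leaving out 1 library at a time gave 4637 to 5163 higher genes. The correlation of the experiments was 0.911 at 5 or more CPM, 0.736 with a prior count of 0.5 and 0.784 with 5. The interaction gave 6 genes with no filter and 0 to 7 when 1 library was left out, and the floor rule gave 0 genes with 0 against 10 or more counts. MT1X was at 0.46 without technical replicate 1 and -0.077 without technical replicate 2, and RPL37A at 0.22 in experiment 1 alone (adjusted p = 0.0039). Of 242 named genes called, 202 stayed called in every alternative that gave them an adjusted p, and 40 were lost in at least 1. Some scarce genes had an adjusted p in fewer than the 22 alternatives, such as OASL in 5 and IL34 in 17. The median changed sign for 6 of 48 lists and the majority of calls turned or was tied for 6. Other scalings put the median of all genes between -0.0077 and 0.017. At 3 counts or fewer per summed library, levels are not resolved. The cause of these shifts was not tested.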
